A study of Homo sapiens with 22 samples.

Results

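The regions described here are stretches of open chromatin that lost their peak in KMS11 cells labelled TKO while the same stretch was also open in KMS34 cells. All 22 ATAC-seq peak lists were merged over the 22 autosomes and X into 96166 regions. A region was a member if it carried a peak in both KMS11 day 0 libraries, in neither TKO library and in both KMS34 day 0 libraries. That rule, which uses measured values, selected 1310 regions. They are 7.69% of the 17034 regions that were open in all 4 day 0 libraries of KMS11 and KMS34. Members were set beside the 14697 regions kept in both TKO libraries and open at day 0 in both lines, called kept regions here. They were also set beside the 1128 regions lost in TKO with a peak in neither KMS34 day 0 library, called KMS11-private regions. Kept regions had a peak in all 6 libraries of the rule, which favours regions that are readily called.

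KMS11 and KMS34 are established multiple myeloma lines, and the labels give both the genotype t(4;14) and bone marrow as tissue. The 22 libraries fall into 11 groups of 2: KMS11 and KMS34 at day 0 without treatment, KMS11 TKO at day 0, and both lines in DMSO or in NSD2LDD at day 4 and day 10. The series' design text describes NSD2-LDD as inducing NSD2 degradation. The sources used here give neither its concentration nor the meaning of TKO. In the field, KMS11 TKO usually names a derived clone whose translocated NSD2 allele was disrupted, and a clone can differ from its parent in other ways. The titles mark the paired libraries Dup1 and Dup2 without saying whether these were separate cultures, so the p-values below measure only the spread between these samples.

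NSD2 is a histone methyltransferase that places dimethylation on lysine 36 of histone H3 (H3K36me2). The t(4;14) translocation puts NSD2 under immunoglobulin heavy chain control, and the excess enzyme spreads H3K36me2 over long stretches between and within genes while H3K27 methylation recedes there. ATAC-seq marks open chromatin by where the transposase Tn5 can insert. Open chromatin far from gene starts is often enhancer DNA, and peaks at gene starts are usually shared by many cell types.

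Each value is the number of bases of a region covered by peaks called in a library. A value of 0 bp means that no peak was called, which is not the same as closed chromatin. The lists held 24979 to 52518 peaks that covered 11.5 to 31.8 Mb, and they hold no read counts, so sequencing depth is unknown. The gene ends of 8 of 10 plasma cell markers, SDC1, TNFRSF17, PRDM1, XBP1, IRF4, CD38, MZB1 and POU2AF1, carried a peak in all 22 libraries, and none of the 10 was without one throughout. No library had a peak at the ends of MS4A1 (B cells), CD3D, CD3G, CD4 or NKG7 (T and NK cells), CD14, LYZ or CSF1R (myeloid cells), or CDH5, VWF or PECAM1 (endothelial cells). Other markers of the same lists were open: CR2, CD8A, FCGR3A and COL1A1 in all 22 libraries, BLK and CD3E in 21, COL1A2 in 10, PDGFRB in 8, PAX5 in 6, ITGAM in 2, and CD22 and S100A8 in 1.

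Members were mostly distal. Only 102 of 1310 (7.79%, exact 95% interval 6.39 to 9.37) lay within 1 kb of an end of a protein-coding gene, against 58.1% of kept regions, 4.08% of KMS11-private regions and 14.2% of all regions. Bodies of protein-coding genes held 457 members (34.9%), bodies of other genes 235 (17.9%), and 516 (39.4%) lay between genes. More than 50 kb from any protein-coding gene lay 522 members (39.8%), against 8.01% of kept, 34.4% of KMS11-private and 25.7% of all regions. The protein-coding gene around a member had a median length of 244 kb, against 44.6 kb around kept regions and 112 kb around all regions. Intervals cover counting error only.

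The members were also weaker in the lists that chose them. Ranked by the deposited -log10 q within each list, where 100% is the strongest, the median member stood at 53.2% and 32.8% in the KMS11 day 0 lists and at 61.6% and 57.4% in those of KMS34. The median kept region stood at 75.4% and 65.3%, and at 79.4% and 78.3%. Median member width was 850 bp, against 1226 bp for kept and 693.5 bp for KMS11-private regions.

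To set members beside regions of like strength, regions open in all 4 day 0 libraries were split into 4 equal strength classes by their rank in the first KMS11 day 0 list. From weakest to strongest, the share lost in TKO between genes was 28.4%, 20.7%, 13.4% and 10.1%. In protein-coding bodies it was 18.8%, 11.3%, 8.04% and 3.11%, and in other gene bodies 26.1%, 14.6%, 10.0% and 3.82%. At gene ends it was 4.06%, 1.35%, 0.294% and 0, the last being 0 of 2703 regions, which allows up to 0.136% (exact 95%). In every class the gene ends had the lowest share and the stretches between genes the highest. Rank and loss both come from libraries the rule used, and a weak peak more often goes uncalled in another library. The fall with strength is thus partly set by the rule, and the interval covers counting error only.

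**Figure D1:**
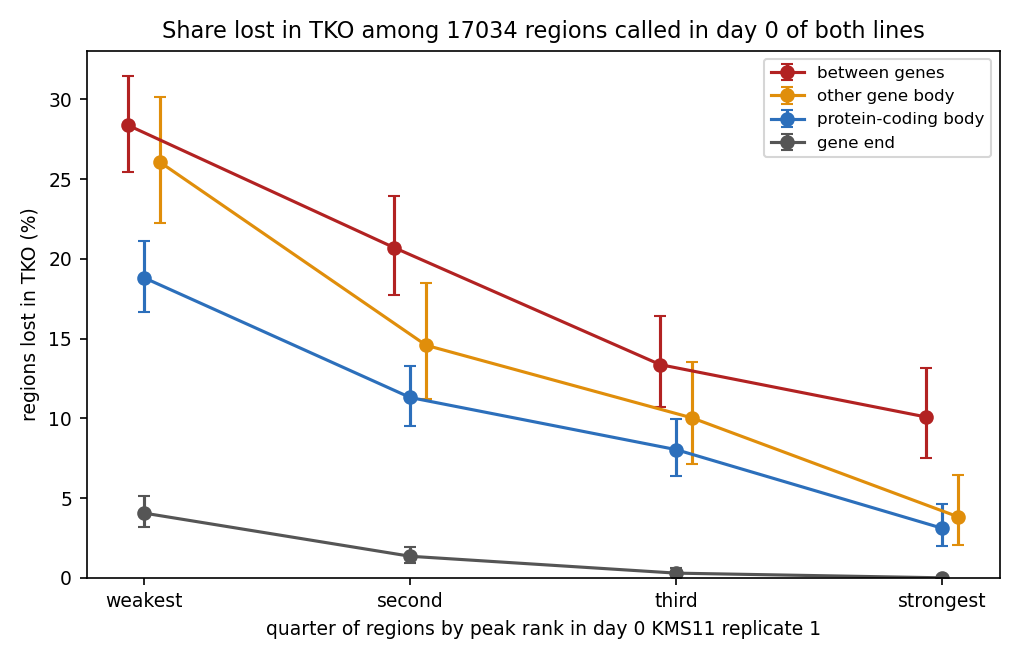
Share of regions open in all day 0 libraries of both lines that had no peak in either TKO library, in percent, by strength class (weakest to strongest) and by position; bars are exact 95% intervals. The share falls with strength at every position, from 28.4% to 10.1% between genes and from 4.06% to 0 at gene ends. Both measures come from libraries the rule used, so this fall is partly set by the rule.

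The share of day 0 regions that were members ranged from 0.760% on chromosome 22 (2 of 263) to 13.8% on chromosome 4 (115 of 832). Away from gene ends the extremes were the same chromosomes, at 2.13% and 21.8%. Members were scattered: the median gap to the next member was 1124 kb, 70 neighbouring pairs lay within 50 kb and 17 within 10 kb. Of 549 members inside protein-coding genes, spread over 472 genes, 412 genes held a single member. LRRC4C, a synaptic adhesion gene, and ZBTB20, a zinc finger repressor, held 4 each.

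A small set of members covered promoters. RefSeq promoter windows of protein-coding genes (GRCh38.p14, 250 bases before to 50 after a start; 22132 windows, none on chromosome 8) overlapped 97 members at 124 windows. These promoter members were the steadier ones: 70 of 97 (72.2%) carried a peak in all 16 DMSO and NSD2LDD libraries, against 486 of 1213 other members (40.1%). The windows were GC-rich, with a median GC of 68.0% against 66.3% for windows at kept regions and 62.3% for all windows.

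Short motifs were searched on both strands of each 300-base window: AP-1 (TGANTCA), ETS (CCGGAAG), IRF (GAAANNGAA), E-box (CACGTG) and the MAF core (TGCTGA). AP-1 letters were in 13 of 124 member windows (10.5%), against 3.28% at kept regions and 6.15% of all windows. ETS letters were in 2 windows (1.61%), against 21.2% and 12.8%. The E-box share was 9.68%, against 10.5% and 8.34%. IRF letters were in 3.23% of member windows and MAF cores in 8.87%, against 7.09% and 15.4% of all windows. With the match required to lie inside the region itself, AP-1 held at 8.06% of member windows and 3.18% of kept windows, and ETS at 1.61% and 21.1%. These are letter matches and not shown to be bound sites.

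The 250 bases before the start are given for 4 promoter members, written 5′ to 3′ along the gene, with the motif match in capitals. They were chosen after the matches were seen, to show an AP-1 letter match at 2 promoters that were not open in every later library and an ETS and an E-box match at 2 that were. AP-1 letters also lay before the starts of CDC14B, REEP1 and SGMS2, outside the member region. Those members had a peak in all 16 later libraries. The choice thus says nothing on whether AP-1 matches go with less steady peaks. GBP6 encodes an interferon-induced guanylate-binding protein, RIMS1 a presynaptic active-zone scaffold, CAP2 an actin-regulating cyclase-associated protein and CTNND2 delta-catenin.
GBP6, chr1:89363809-89364058, plus strand: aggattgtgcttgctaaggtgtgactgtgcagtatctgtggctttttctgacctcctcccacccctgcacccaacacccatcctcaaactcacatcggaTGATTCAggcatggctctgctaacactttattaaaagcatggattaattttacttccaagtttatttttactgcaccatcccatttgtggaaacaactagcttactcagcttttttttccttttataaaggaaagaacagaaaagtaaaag
RIMS1, chr6:71886300-71886549, plus strand: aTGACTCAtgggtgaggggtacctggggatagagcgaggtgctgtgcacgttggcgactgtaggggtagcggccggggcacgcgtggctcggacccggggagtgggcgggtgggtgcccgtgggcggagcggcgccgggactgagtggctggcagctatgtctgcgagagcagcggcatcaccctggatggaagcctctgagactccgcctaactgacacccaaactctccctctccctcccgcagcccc
CAP2, chr6:17393345-17393594, plus strand: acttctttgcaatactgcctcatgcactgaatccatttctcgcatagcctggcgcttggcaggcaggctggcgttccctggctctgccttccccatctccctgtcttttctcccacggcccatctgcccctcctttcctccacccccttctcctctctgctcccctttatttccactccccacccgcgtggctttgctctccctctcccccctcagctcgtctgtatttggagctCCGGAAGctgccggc
CTNND2, chr5:11904447-11904696, minus strand: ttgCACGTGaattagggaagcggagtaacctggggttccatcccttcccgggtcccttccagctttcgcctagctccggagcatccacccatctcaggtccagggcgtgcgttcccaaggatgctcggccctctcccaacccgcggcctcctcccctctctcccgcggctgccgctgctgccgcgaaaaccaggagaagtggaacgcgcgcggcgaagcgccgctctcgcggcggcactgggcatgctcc

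The capitals are AP-1 in GBP6 (TGATTCA) and RIMS1, ETS in CAP2 (CCGGAAG) and E-box in CTNND2 (CACGTG). At RIMS1 peaks covered 622 and 237 bp in day 0 KMS11, 0 and 0 in TKO, 351 and 185 in DMSO and 593 and 0 in NSD2LDD at day 4, and 409 and 631 in DMSO and 0 and 0 in NSD2LDD at day 10. In KMS34 the same promoter was covered by 824 to 1184 bp in all 10 libraries. The KMS11 NSD2LDD difference at RIMS1 was -1.54 ± 0.46 (SE; limma, adjusted p = 0.365) and missed the threshold. GBP6 had no peak in the first NSD2LDD library at day 10 of KMS11 and the first DMSO library at day 4 of KMS34, and 401 to 1110 bp in all other libraries except TKO. CAP2 and CTNND2 were covered in all 16 later libraries, by 726 to 1186 bp and by 715 to 1313 bp.

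The 16 DMSO and NSD2LDD libraries played no part in choosing members, and most members were open in them too. In KMS11 a peak was called at 93.3% and 93.9% of members in DMSO and 92.2% and 91.9% in NSD2LDD at day 4. At day 10 the shares were 78.3% and 86.3% in DMSO and 76.2% and 77.0% in NSD2LDD, so all 4 day 10 libraries lay below all 4 day 4 libraries. In KMS34 the shares were 85.1% and 99.0% in DMSO and 94.8% and 97.6% in NSD2LDD at day 4. They were 97.8% and 96.3% in DMSO and 92.8% and 83.7% in NSD2LDD at day 10. The 85.1% and 99.0% belong to the shortest (34165 peaks) and the longest (52518) of the KMS34 lists. Kept regions were called at 97.4% to 99.8% in all 16, and KMS11-private regions at 3.81% to 17.9% in KMS34. In KMS11 the private regions were called at 85.3% and 88.7% in DMSO and 81.7% and 86.3% in NSD2LDD at day 4. At day 10 they stood at 77.2% and 85.1% in DMSO and 76.5% and 76.4% in NSD2LDD. Their shares fell in each treatment, so a lower share at day 10 is not particular to members.

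**Figure D2:**
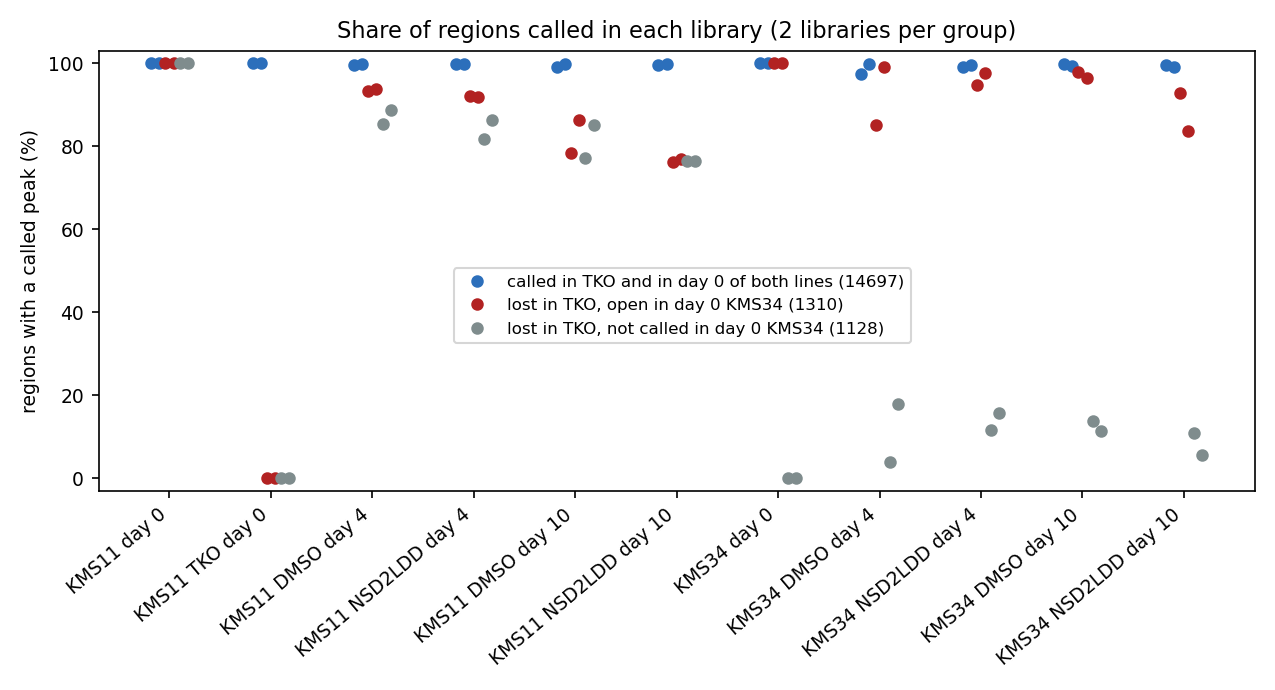
Share of members, kept regions and KMS11-private regions with a peak, in percent, in each of the 22 libraries, grouped by line, treatment and day. Member shares drop at day 10 in KMS11, to 76.2% to 86.3%, and the KMS34 NSD2LDD libraries at day 10 stand at 92.8% and 83.7%. KMS11-private shares in KMS11 are 81.7% to 88.7% at day 4 and 76.4% to 85.1% at day 10.

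Of the members, 556 (42.4%) were called in all 16 of these libraries, 742 (56.6%) in all 8 of KMS11 and 932 (71.1%) in all 8 of KMS34. At least 12 of 16 libraries had a peak at 1173 (89.5%). The gene-end members were called in all 16 most often (64.7%), followed by members in protein-coding bodies (43.3%), other gene bodies (39.6%) and between genes (38.6%).

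The widest members open throughout lay within 1 kb of the starts of ADGRL2 (a latrophilin adhesion receptor), SERTAD4, PDE10A (a cyclic nucleotide phosphodiesterase), PLXDC2 (a plexin-domain membrane protein) and PPP1R9A (the actin-binding protein neurabin). At SERTAD4 (chr1:210232261-210234513) peaks covered 1454 and 1139 bp in day 0 KMS11, 0 and 0 in TKO, 1182 to 1584 bp in the 8 later KMS11 libraries and 1430 to 2183 bp in KMS34. The NSD2LDD libraries of KMS11, at 1182 to 1550 bp, overlapped the DMSO libraries, at 1278 to 1584 bp. No NSD2LDD library lacked the peak, while both TKO libraries did.

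At the other end, no member was called in fewer than 3 of 16. A region inside JAK1, a cytokine receptor kinase gene (chr1:64948734-64949452), was called in 3, at 376 bp in the second KMS11 NSD2LDD library of day 4, and at 206 and 436 bp in 1 DMSO and 1 NSD2LDD library of KMS34 at day 10. Regions in TNNI3K (5 of 16), BDNF (6), PDE1C (6) and near KCNG1 (6) came next. These 5 were chosen after their values were seen.

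The design asks whether NSD2LDD moves the members the way TKO did. Values were compared as log2 of covered bp plus 100, centred on regions called in all 16 libraries, in 1 limma fit of 8 groups over 66683 regions called in at least 2 of 16. All 1310 members passed that filter, and calls are adjusted p under 0.05 by Benjamini-Hochberg over all 66683. In KMS11, 4 NSD2LDD against 4 DMSO libraries over both days, 7 members fell and 1 rose (0.611% of members), against 0.087% of all regions. Without adjustment 131 members (10.0%) had p under 0.05, against 5.19% of all regions. The median member difference was -0.01, and so was the median of all regions. In KMS34, 5 members fell and none rose (0.382%), against 0.195% of all regions. There 98 members (7.48%) had an unadjusted p under 0.05, against 9.14% of all regions, and the median difference was 0.03. The background regions need not be open in both lines, whereas the rule gave each member a peak in both at day 0 and with it more room to fall, so the balance of falls and rises and a gap to the background are partly set by the rule.

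These calls rest on the spread being shared between lines. Fitted on the 8 libraries of 1 line, limma called none of 1293 members in KMS11 and none of 1307 in KMS34, with 88 and 95 at an unadjusted p under 0.05. Unadjusted counts of fits of 1 line, here and below, come without a background share, so no excess is read from them. In the fit of both lines, 13 to 18 members were called in KMS11 when any 1 of its 4 day 10 libraries was left out. That count was 17 without the second DMSO library of day 10 (9 lower and 8 higher). It was 5 without the second KMS34 NSD2LDD library of day 10. The KMS34 count ran from 3, without any 1 of the 4 KMS11 day 4 libraries, to 21, without the first KMS34 NSD2LDD library of day 10, and was 19 without the second KMS34 DMSO library of day 4 (5 lower and 14 higher, so that rises led), 9 without the second KMS34 NSD2LDD library of day 4 and 8 without 3 others (the first KMS34 DMSO and first NSD2LDD library of day 4 and the second DMSO library of day 10).

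The clearest KMS11 fall was inside SORCS3, a sortilin-family receptor of neurons (chr10:104809274-104809972). Peaks covered 551 and 273 bp in day 0 KMS11, 337 and 324 bp in DMSO at day 4 and 329 and 470 bp in DMSO at day 10. Both TKO libraries and all 4 KMS11 NSD2LDD libraries had no peak there, while all 10 KMS34 libraries had one, at 467 to 650 bp. The NSD2LDD difference in KMS11 was -2.22 ± 0.20 (SE; limma, adjusted p = 0.00425), a size that depends on the 100 bp added since the NSD2LDD values are all 0.

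AMER3, which encodes a membrane adaptor of the APC and Wnt pathway, had a member in its body (chr2:130759911-130760572) with the same pattern. Day 0 KMS11 values were 222 and 179 bp, DMSO values 188, 234, 327 and 398 bp, and TKO and NSD2LDD values all 0, with 286 to 643 bp in KMS34. The difference was -1.93 ± 0.21 (limma, adjusted p = 0.00840). SORCS3 and AMER3 were the only members with a peak in 4 of 4 DMSO and 0 of 4 NSD2LDD libraries in KMS11 (background 0.042%), and no member had that pattern in KMS34 (background 0.06%). Both lost their call when lists were cut to equal length, at -0.64 for SORCS3 and -1.35 for AMER3, and in the fit of KMS11 alone. SORCS3 also lost it with peaks of -log10 q of at least 5 (-1.69, limma, adjusted p = 0.163). AMER3 also lost it with 300 bp added (-0.96, limma, adjusted p = 0.0686). Each thus lost its call in 3 of 28 alternatives.

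At the other called members of KMS11 the peak was lost at day 10. A member 594 kb from REEP3, an endoplasmic reticulum shaping gene, held 793 and 632 bp in DMSO and 490 and 538 bp in NSD2LDD at day 4, then 472 and 499 bp in DMSO and 0 and 0 in NSD2LDD. Its difference over both days was -1.49 ± 0.15 (limma, adjusted p = 0.00746). Members 32.6 kb from SRD5A2, a steroid reductase gene, and 14.4 kb from CD1D, which presents lipid antigens, fell likewise by 1.41 and 1.37 on the log2 scale. The CD1D call (limma, adjusted p = 0.0432) was lost in 21 of 28 alternatives, 15 of which left out a library, and the SRD5A2 call in 9 of 28. At both, day 4 NSD2LDD values (278 to 380 bp) lay below day 4 DMSO values (437 to 568 bp), and the day 10 NSD2LDD values were 0.

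Members 113 kb from NFIA, a nuclear factor I transcription factor gene, and 227 kb from DMRTA1, a DM-domain factor gene, were also called lower (-1.28 and -1.45) but with opposite signs at day 4 and day 10. The 1 member called higher lay 241 kb from SOX2, a stem cell transcription factor gene (chr3:181955364-181956487). It held 902 and 597 bp in DMSO and 844 and 737 bp in NSD2LDD at day 4, and 0 and 0 in DMSO against 581 and 615 bp in NSD2LDD at day 10. The difference was 1.43 ± 0.17 (limma, adjusted p = 0.0145), and here it was DMSO that lacked the peak. The next smallest p among rises belonged to members 1010 kb from LOC124901495 and 5.83 kb from IFNA7, an interferon gene, and both missed the threshold.

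**Figure D3:**
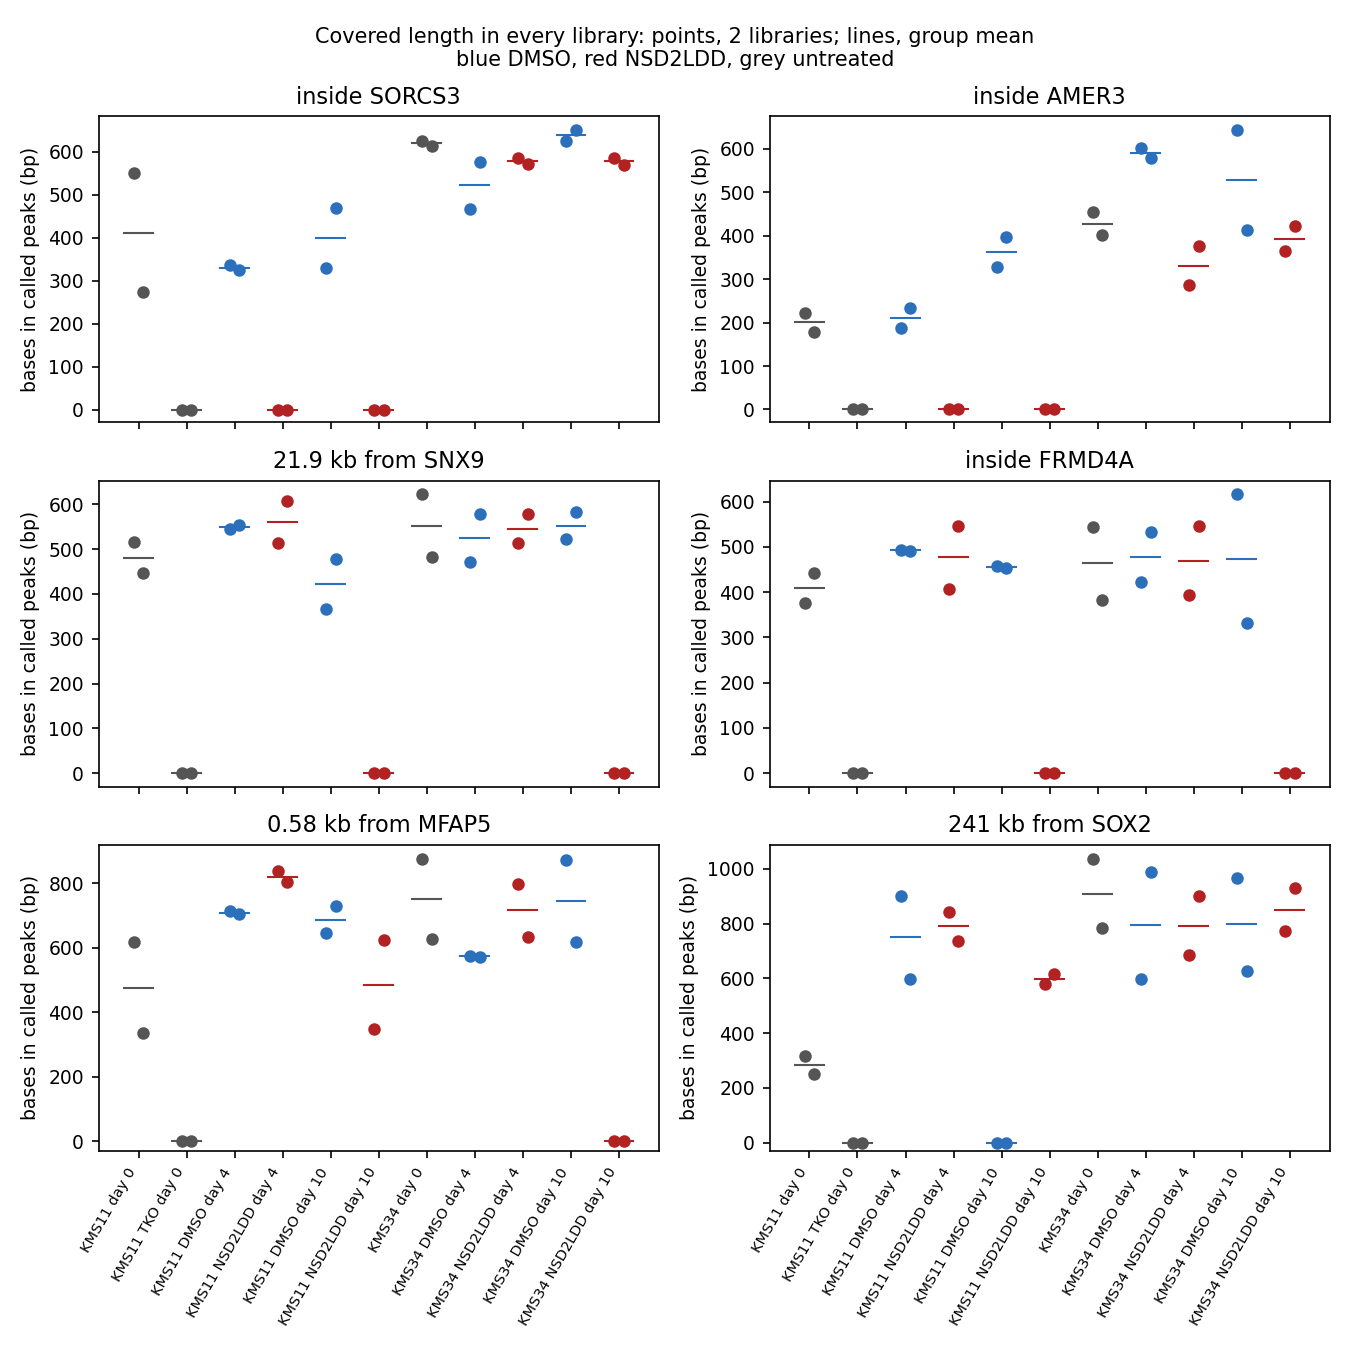
Covered bp in each of the 22 libraries at 6 members (SORCS3, AMER3, SNX9, FRMD4A, MFAP5 and SOX2), by line, treatment and day; each point is a library. SORCS3 and AMER3 are at 0 in TKO and all KMS11 NSD2LDD libraries, SNX9 and FRMD4A in the day 10 NSD2LDD libraries of both lines, MFAP5 in those of KMS34, and SOX2 in day 10 DMSO of KMS11.

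In KMS34 the 5 called members had lost their peak in both NSD2LDD libraries at day 10. The member 580 bp from MFAP5, which encodes a microfibril-associated matrix glycoprotein (chr12:8644318-8645363), held 575 and 572 bp in DMSO and 799 and 635 bp in NSD2LDD at day 4, then 872 and 619 bp in DMSO and 0 and 0 in NSD2LDD. Its difference over both days was -1.38 ± 0.14 (limma, adjusted p = 0.00733). In KMS11 it kept a peak in all 8 later libraries, at 348 to 837 bp. The other called members lay inside SYN3, a synaptic vesicle gene (-1.46), 402 kb from ADAMTS16, a secreted metalloprotease gene (-1.35), 21.9 kb from SNX9, an endocytic sorting nexin gene (-1.31), and 143 kb from PDHA2, a pyruvate dehydrogenase subunit gene (-1.22). The SYN3 call was kept in 13 of 28 alternatives and turned to a small difference of the other sign with lists of equal length. The SNX9 call was kept in 18. At SNX9, PDHA2 and MFAP5 the day 4 difference had the other sign. The smallest p among KMS34 rises belonged to members near SGMS2, in SAMD12 and near CHRM3, and all 3 missed the threshold.

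The difference between the lines was tested itself. At an unadjusted p under 0.05 there were 102 members (7.79%), against 6.66% of all regions. No member was called (background 0.0045%, or 3 of 66683 regions). That count was 0 without any 1 of the 16 libraries in turn, 26 with lists of equal length, 13 with 30 bp added, 6 without limma's trend and robust options, 2 without scaling, 1 with all 22 libraries in the fit and 54 for windows around summits. So SORCS3 and AMER3, with 0 of 4 NSD2LDD libraries in KMS11 and 4 of 4 in KMS34, are given as values and not as a tested difference between lines.

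Counting whole groups without a model, all 4 NSD2LDD libraries lay below all 4 DMSO libraries at 9 members in KMS11 (0.687% of members; background 0.475%) and above them at 9 (background 0.919%). In KMS34 the counts were 24 below (1.83%; background 0.97%) and 27 above (2.06%; background 1.73%). The share below in KMS34 stood furthest above its background, and the share above in KMS11 lay under its background. Kept regions stood at 1.03% below and 1.05% above in KMS11, and at 1.35% and 1.79% in KMS34. Against kept regions members were thus lower in both directions in KMS11 and higher in both in KMS34.

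Split by day, NSD2LDD had few calls at day 4. In KMS11 2 members fell (background 0.13%), SORCS3 at -2.14 and a member 276 kb from ADCY8, an adenylyl cyclase gene, at -2.51. In KMS34 2 members rose (background 0.376%), inside SAMD12 at 2.40 and inside NHSL2 at 1.76. Leaving out 1 library took the KMS11 count to between 0 and 3: it was 0 without any of 11 libraries, 1 (a rise) without the second KMS11 DMSO library of day 4, and 3 without either KMS11 NSD2LDD library of day 10. In KMS34 it took the count to 45 without the second DMSO library, the longest list, to 4 (2 lower and 2 higher) without the second DMSO library of day 10, to 1, a fall, without the second NSD2LDD library and to 0 without any of 12 other libraries. Peaks in both DMSO and neither NSD2LDD library were found at 11 members in KMS11 (background 1.16%) and 4 in KMS34 (background 1.01%). The reverse was found at 5 (background 1.2%) and 6 (background 2.3%).

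At day 10, 25 members fell and 5 rose in KMS11 (2.29% of members; background 0.418%), and 5 of 14697 kept regions were called. The median member difference was -0.06 (-0.07 without scaling), and 14.3% of members lay below -1 against 5.27% above 1. For kept regions these shares were 0.340% and 0.551%. The rule gave members more room to fall, so this balance is partly set by it. The falls were at members near DMRTA1 (-2.94), SIPA1L2 (-2.70), NFIA (-2.65), PTPRZ1 (-2.57) and REEP3 (-2.54) and inside RASAL2 (-2.55) and FRMD4A (-2.46). PTPRZ1 is a receptor tyrosine phosphatase gene, and SIPA1L2 and RASAL2 encode GTPase-activating proteins. The rises were near SOX2 (2.81), LOC124901495 (2.77), IFNA7 (2.53), FAM90A15 (2.12) and ZNF608 (1.88), all with 0 bp in both DMSO libraries. In the fit of KMS11 alone only the DMRTA1 member was called, 1 of 1293, with 126 at an unadjusted p under 0.05. The count was 49 without the first NSD2LDD library of day 10. Without the second DMSO library of day 10 it was 32, with 15 lower and 17 higher, so the excess of falls rested on that library.

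In KMS34 at day 10, 17 members fell and 1 rose (1.37% of members), which is the background share of 1.37%. Over all regions 494 fell and 422 rose. The median member difference was -0.07 and the median of all regions -0.06, or -0.01 and 0 without scaling. Below -1 lay 15.0% of members and 0.660% of kept regions, and above 1 lay 1.30% and 0.578%. The rule gave members more room to fall, so this balance is partly set by it. The deepest falls were at MFAP5 (-3.13 ± 0.19, limma, adjusted p = 0.000243) and SNX9 (-2.77). Next came SYN3 and ADAMTS16 (both -2.66), PDHA2 and CAMK4 (both -2.63), FRMD4A (-2.54) and PARD3B (-2.46). CAMK4 is a calcium and calmodulin-dependent kinase gene and PARD3B a cell polarity gene. The 1 rise was near SGMS2, a sphingomyelin synthase gene (1.95). In the fit of KMS34 alone only MFAP5 was called, with 125 at an unadjusted p under 0.05.

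The KMS34 day 10 count moved with single libraries. It was 59 without the first NSD2LDD library of day 10, 28 without either DMSO library of day 4, 11 without the second KMS11 DMSO library of day 4, and 8 without either KMS11 NSD2LDD library of day 4. It was 6 without the first DMSO library of day 10, and 3 without the second DMSO or the second NSD2LDD library of day 10. The second NSD2LDD library, where members were called least often (83.7%), held 42268 peaks of 583 bp median width, against 47698 peaks of 421 bp in the first. Its part in the result was not tested.

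Peaks present in both DMSO and absent from both NSD2LDD libraries at day 10 were found at 49 members in KMS11 (3.74%; background 1.06%) and 44 in KMS34 (3.36%; background 2.88%), and at 4 and 9 kept regions. Peaks gained were found at 15 members in KMS11 (background 1.67%) and 2 in KMS34 (background 2.03%). The rule itself gives members more peaks to lose than to gain, so nothing is read from this balance or from its gap to the background.

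Of these losses 5 were shared by both lines, 10.2% of the 49 in KMS11 and 11.4% of the 44 in KMS34. Over all regions 34 were shared, 4.80% of 708 losses in KMS11 and 1.77% of 1923 in KMS34. KMS11-private regions shared 3, which was 8.57% and 11.1% of their losses, and kept regions shared 0. A loss can be shared only where both lines had the peak in DMSO at day 10. The rule asked members for a peak in both lines at day 0 only. Why the shares differ between sets was not tested, and they are a description. The 5 members lost in both lines lay 5.46 kb from LRATD1, 216 kb from GIMD1, 21.9 kb from SNX9, inside FRMD4A and 219 kb from TMEM132C. They are named because they are all of them. They share the same TKO and day 0 pattern by the rule, but the 2 lines share no library.

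At the SNX9 member (chr6:157800642-157801342) peaks covered 546 and 553 bp in DMSO and 513 and 608 bp in NSD2LDD at day 4 in KMS11, and 367 and 479 bp in DMSO and 0 and 0 in NSD2LDD at day 10. In KMS34 the values were 471 and 579, 514 and 578, 522 and 582, and 0 and 0 bp in the same order. No day 10 NSD2LDD library had a peak and every other library but TKO did. The day 10 differences were -2.37 ± 0.29 in KMS11 and -2.77 ± 0.29 in KMS34 (limma, adjusted p = 0.0135 and 0.00814).

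FRMD4A encodes a FERM-domain scaffold of cell polarity, and the member inside it (chr10:13941872-13942497) behaved likewise, with 332 to 616 bp in the 12 other later libraries and 0 in the 4 day 10 NSD2LDD libraries. Its differences were -2.46 and -2.54. SNX9 and FRMD4A were the 2 members called at day 10 in both lines. Another 28 were called in KMS11 only and 16 in KMS34 only, which is no test that the lines differ.

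**Figure D4:**
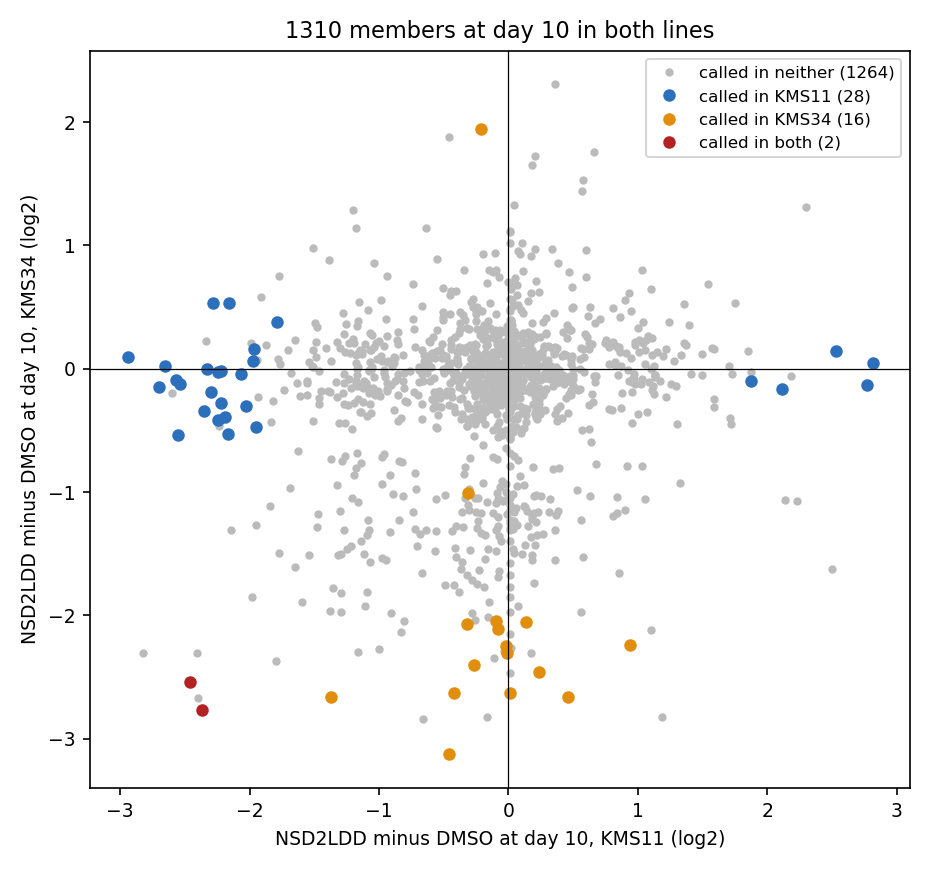
Day 10 NSD2LDD minus DMSO difference of each member, log2 of covered bp plus 100, in KMS34 against KMS11; colours mark members called in KMS11, in KMS34 or in both. SNX9 and FRMD4A are the 2 called in both lines, at about -2.4 and below on both axes.

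The change of the NSD2LDD effect from day 4 to day 10 was called at 7 members in KMS11 (5 lower, 2 higher; 2 lower and none higher without scaling; background 0.0525%) and 5 in KMS34 (all lower; background 0.103%). In KMS11 these lay near DMRTA1, NFIA, PTPRZ1 and REEP3 and inside TRIM9 (lower) and near SOX2 and LOC124901495 (higher). In KMS34 they were at NHSL2, MFAP5, SNX9, PDHA2 and ADAMTS16. Without 1 library the KMS11 count ran from 0, without the second DMSO or either NSD2LDD library of day 4 in KMS11 or either KMS34 NSD2LDD library of day 4, to 18, without the first KMS11 NSD2LDD library of day 10. The KMS34 count ran from 1, without its second NSD2LDD library of day 10, to 36, without its second DMSO library of day 4, and was 21 without its first NSD2LDD library of day 10.

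In KMS11, with 4 libraries against 4, more members were called between day 4 and day 10 than between NSD2LDD and DMSO. With 2 against 2 the day change in DMSO called 14, fewer than the 30 of NSD2LDD at day 10 and more than its 2 at day 4. Over DMSO and NSD2LDD libraries, 66 members fell and 2 rose from day 4 to day 10 (5.19% of members; background 0.568%), and 12 of 14697 kept regions were called. The median member fell by 0.34 on the log2 scale while the kept median was 0.01 and the median of all regions -0.01. Values were below 0 at 83.3% of members and 46.6% of kept regions, and below -1 at 19.7% and 0.340%. This comparison was added after the data were seen. The rule gave each member a peak in day 0 KMS11, while background regions need not have one. The balance of falls and rises and the gap to the background are thus partly set by the rule. KMS11-private regions also carried a peak less often at day 10 in KMS11, at 76.4% to 85.1% against 81.7% to 88.7% at day 4. In DMSO alone 14 members fell and none rose (background 0.292%), with a median of -0.23. That count was 0 without the first KMS11 DMSO library of day 4 and 43 without the second of day 10.

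In KMS34 the same comparison called 1 member, the MFAP5 region, lower (background 0.039%), with a median of -0.03 and 55.5% of members below 0. Without scaling the member median was 0.06 and that of all regions 0.03, so the sign of the member median depends on scaling. In DMSO alone the comparison called none (background 0.0015%). There 35 members (2.67%) had an unadjusted p under 0.05, against 4.11% of all regions. Without the second KMS34 DMSO library of day 4 these counts were 5 lower and 6 higher over both treatments, and 1 lower and 35 higher in DMSO alone, and without the first KMS34 NSD2LDD library of day 10 the former was 17 lower. The difference of the day change between lines was called at 3 members (background 0.0225%), inside ZNF385B (2.90), near EEA1 (2.81) and near DMRTA1 (1.98), all falling further in KMS11. That count was 0 without any of 8 single libraries (the first DMSO and both NSD2LDD libraries of day 4 in KMS11, and in KMS34 the first DMSO and first NSD2LDD of day 4, both DMSO and the second NSD2LDD of day 10). It was 1 without either of the other KMS34 NSD2LDD libraries. It was 23 without the second KMS11 DMSO library of day 10, 17 without the second KMS34 DMSO library of day 4, and 8, 10 and 6 without the other KMS11 libraries of day 10. With the replicate number as a block it was 0, with unscaled values 15, and with lists of equal length 38. At an unadjusted p under 0.05 there were 244 members (18.6%) against 7.63% of all regions.

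**Figure D5:**
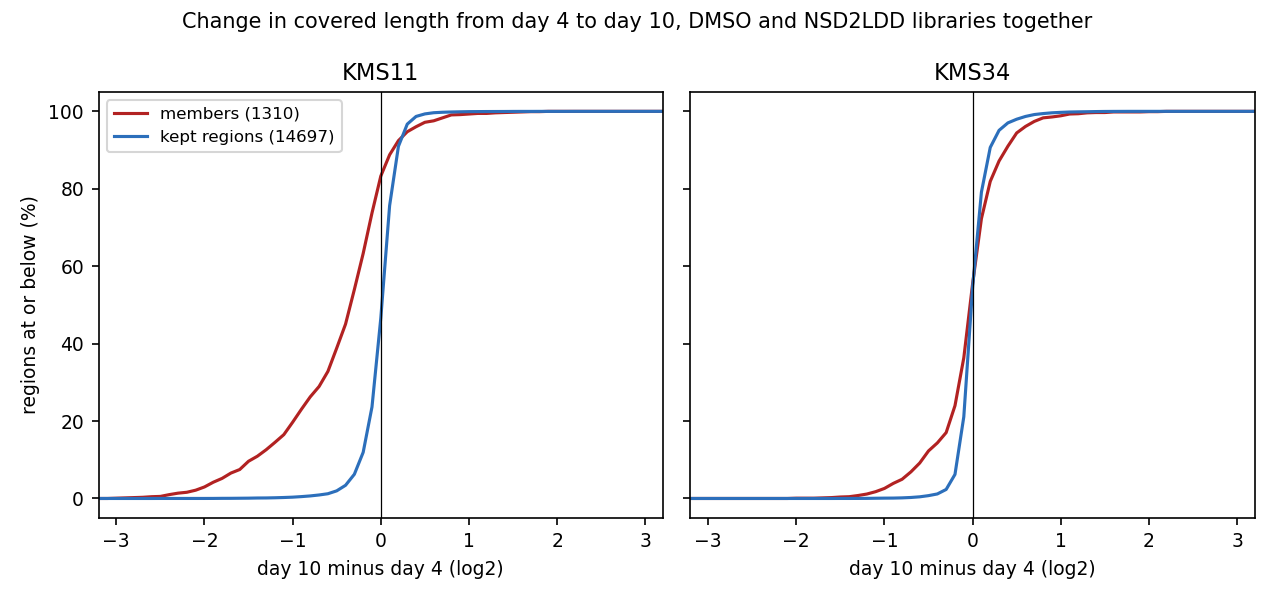
Cumulative share of members and kept regions, in percent, by their day 10 minus day 4 difference (log2 of covered bp plus 100) in KMS11 and in KMS34. In KMS11 the member curve lies left of the kept curve, with medians of -0.34 and 0.01, and in KMS34 their medians are -0.03 and -0.01. Without scaling the KMS34 member median is 0.06.

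The KMS11 day count also rests on the shared spread. In the fit of KMS11 alone no member was called, with 321 of 1293 at an unadjusted p under 0.05. It was 124 without the second DMSO library of day 10, and 36, 43 and 40 without the first DMSO, the first NSD2LDD or the second NSD2LDD library of day 4. The median was -0.32 in the fit of KMS11 alone and -0.33 without scaling. Day and library preparation cannot be told apart, because nothing in the labels separates them.

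Members with peaks in 4 of 4 day 4 and 0 of 4 day 10 libraries numbered 23 in KMS11 (1.76%; background 0.297%) and 0 in KMS34 (background 0.0285%), and no kept region had either pattern. The reverse was seen at 1 member in KMS11 (background 0.108%) and 0 in KMS34 (background 0.0585%). The rule gives members more peaks to lose than to gain, so this balance and its gap to the background are partly set by it. Of the 23, 14 had a peak in all 10 KMS34 libraries and 0 lay at gene ends. The member 131 kb from EEA1, an early endosome tether gene, held 798, 481, 613 and 729 bp at day 4 and 0 in all 4 day 10 libraries of KMS11, with 376 to 594 bp in KMS34. Its change in KMS11 was -2.91 ± 0.23 (limma, adjusted p = 0.000651).

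Others that fell as far lay 1067 kb from EDIL3, an integrin ligand gene (-3.01), 355 kb from CHSY3, a chondroitin synthase gene (-2.90), inside ZNF385B, a zinc finger gene (-2.75), 581 kb from AADAT, a kynurenine aminotransferase gene (-2.70), 449 kb from PLPP3, a lipid phosphatase gene (-2.64), and 127 kb from ADCY1, an adenylyl cyclase gene (-2.47). The 2 rises lay 18.2 kb from JAM3, a junctional adhesion gene (1.28), and 276 kb from ADCY8 (1.20). Of the 2 genes with the most members, LRRC4C and ZBTB20, each had 1 member that fell (-2.19 and -1.98).

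Peak strength moves with this loss. Among members of the weakest strength class away from gene ends (611), peaks were called at day 10 in KMS11 at 62.2% and 75.9% in DMSO and 62.8% and 65.0% in NSD2LDD. Kept regions of that class (1537) stood at 94.3%, 97.8%, 96.0% and 98.2%. The 84 members of the strongest class stood at 97.6%, 98.8%, 94.0% and 96.4%. In the weakest class members were thus below kept regions in all 4 libraries. The rule asked kept regions for a peak in both TKO libraries and members for none. Regions that are called more readily therefore fall among the kept, and this gap is partly set by the rule. The part of strength within a class was not tested.

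The lines themselves differed at many members. In DMSO, 87 members were lower and 160 higher in KMS34 than in KMS11 (18.9%), fewer than the background of 30.4% and more than the 14.4% of kept regions. Without scaling the counts were 45 and 138, so the share that was higher went from 64.8% to 75.4%. Without the second KMS34 DMSO library of day 4, the longest list, 142 were lower and 116 higher, so the majority rests on that library. The rule required a peak at day 0 in both lines, which limits how far members can differ.

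Lower in KMS34 were members 261 kb from TFAP2B, an AP-2 transcription factor gene (-3.32), 21.3 kb from JUN, an AP-1 gene (-2.92), 74.3 kb from TMEM132E (-2.57), inside NHSL2 (-2.43) and 87.8 kb from PCDH9, a protocadherin gene (-2.38). At JUN (chr1:58805340-58806685) peaks covered 872 to 1163 bp in the 8 later KMS11 libraries, 392 and 348 bp in day 0 KMS34, and 348 bp in 1 of 8 later KMS34 libraries, with 0 in the rest. KMS11 and KMS34 libraries other than TKO did not overlap.

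Higher in KMS34 were the region at an end of PCED1B and the start of AMIGO2, an adhesion gene (3.23), and members inside TENM2, a teneurin (2.98), 167 kb from NDN, an imprinted growth regulator gene (2.96), 674 kb from MANEA, a mannosidase gene (2.70), and 37.6 kb from TARP (2.69). The AMIGO2 region (chr12:47079268-47080952) was covered by 175 and 188 bp in day 0 KMS11, 192, 227 and 218 bp in 3 of 8 later KMS11 libraries, and 936 to 1606 bp in all 10 KMS34 libraries.

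Gene lists give the members' surroundings. They were chosen with earlier results in view, so their counts are descriptions. Of regions open in all 4 day 0 libraries, 12 of 38 in ion channel genes (31.6%), 15 of 58 in synapse and axon guidance genes (25.9%), 5 of 28 in phosphodiesterase genes (17.9%) and 10 of 60 in adhesion genes (16.7%) were members, against 7.69% overall. None of 20 plasma cell, 26 H3K36 and H3K27 enzyme or 25 housekeeping gene regions was a member. The B cell list had 1 of 26, the AP-1 and MAPK list 1 of 46 and the t(4;14) list 3 of 20. Gene length was not matched between the lists.

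Few listed members were called for NSD2LDD. In KMS11, 1 of the 15 synapse members, SORCS3, was called lower over both days and on each day, and no listed member was called in KMS34 over both days or at day 10. The t(4;14) members were the promoter of RRAS2, a RAS-family GTPase, and 2 regions in PAK1, a p21-activated kinase. RRAS2 (chr11:14357979-14359504) held 747 and 562 bp in day 0 KMS11, 0 and 0 in TKO, 925 to 1328 bp in the later KMS11 libraries and 958 to 1466 bp in those of KMS34. Its NSD2LDD libraries (970 to 1139 bp) lay within the range of its DMSO libraries (925 to 1328 bp) in KMS11. The B cell member was at an end of EBF1, a B cell transcription factor gene, at 206 to 273 bp where called in KMS11 and 360 to 586 bp in KMS34. The AP-1 and MAPK member lay in RASGRP3, a RAS exchange factor gene, and was called in 10 of 16.

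Long synapse and adhesion genes held members that were open throughout: 2 in CNTNAP2, 1 in CNTN4, 2 in GRID1 and 1 in SLIT3 were called in all 16. The CNTNAP2 member at chr7:147153429-147154198 was covered by 523 to 760 bp in all 16.

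Membership itself shifts with the lists. Just inside the rule, by day 0 coverage, were regions inside NHSL2 (227 and 157 bp in KMS11, 248 and 179 bp in KMS34), 10.6 kb from GARRE1 (204 and 168, 254 and 203 bp) and 1.54 kb from CCDC80 (183 and 162, 305 and 206 bp). Just outside were 3 regions with a peak of 154 bp in the second TKO library and none in the first, near GADD45A and COL9A1 and inside CLMP. In all, 1027 regions open in the 4 day 0 libraries had a peak in 1 of the 2 TKO libraries. Members numbered 1068 with peaks of -log10 q of at least 5 and 936 with lists of equal length. Without the second KMS11 day 0 list, the shortest at 24979 peaks, there were 3299, and without the first TKO list 2023.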

How the data were processed

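ATAC-seq peak lists of 22 libraries were used. Per the submitters' processing notes, the authors' tools were MACS3, BWA, fastp, Picard, SAMtools and deepTools, with no versions named, and the build hg38; per the labels, each list belongs to 1 library. The deposited −log10 q of a peak ranked and filtered peaks within a list (smallest 2.00), and the deposited fold enrichment, a ratio, was used only to describe. The lists hold no read counts, so depth is unknown. The sources used here do not name the peak calling settings.

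Covered bp per merged region was computed in Python 3.11.15 (numpy 2.4.6, pandas 2.3.3, scipy 1.17.1, matplotlib 3.10.9) and checked on simulated intervals. Differences were fitted with limma 3.58.1 (trend, robust; R 4.3.3), tested on simulated data, on 16 DMSO and NSD2LDD libraries in 15 comparisons. The 6 libraries that define membership stayed out of the fit, and their values are descriptions. Regions are named by the protein-coding gene that holds them or else the nearest (RefSeq, GRCh38.p14).

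Members and gene lists were chosen with earlier results of these data known. Regions were named by fixed rules: the largest called changes (or the 3 smallest p where fewer than 3 were called), the widest open throughout, the genes with most members, list members, promoters, the 5 largest line differences, and members at the edge of the rule. Called members whose sign differed between days, those of the day-specific comparisons and the fewest-called members were chosen after their values were seen. The day change over both treatments and its difference between lines were added after the data were seen. Alternatives were list length, q, scaling, bases added, filter, libraries in the fit, block, variance model, summit windows and leaving out each library. Replicate numbers were not used to pair the samples in the main fit. Genomic sequence of distal regions was not analysed here. Some items are not reported here.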

Additional observations from a re-analysis of the deposited data

Results flagged for a closer look

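The response to NSD2LDD differed between day 4 and day 10 at 12 members by limma's test of that difference (Benjamini-Hochberg over all regions). In KMS11 the change of the NSD2LDD effect, day 10 minus day 4 on the log2 scale, was -2.99 near DMRTA1, -2.75 near NFIA, -2.71 near PTPRZ1, -2.63 inside TRIM9, a neuronal ubiquitin ligase gene, and -2.10 near REEP3. It was 3.04 near LOC124901495 and 2.76 near SOX2. In KMS34 it was -3.87 inside NHSL2, -3.50 near MFAP5, -2.92 near SNX9, -2.81 near PDHA2 and -2.62 near ADAMTS16. All 12 have 0 bp in both libraries of a day 10 group, so each size depends on the 100 bp added. NHSL2 in KMS34 had 0 and 0 bp in DMSO and 196 and 235 bp in NSD2LDD at day 4, and 400 and 243 bp against 0 and 0 at day 10, and it also stands at the edge of the membership rule. In the fits of 1 line alone none of the 12 was called.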

How the results depend on the processing

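Calls of single members depend on the settings, since each group has 2 libraries and a value often drops to 0 bp. Of 504 alternatives over the named members, 398 kept direction and side of the threshold, 83 lost the call, 18 gained it and 5 turned direction. With lists of equal length the KMS11 NSD2LDD differences near LOC124901495, NFIA and DMRTA1 became -0.007, 0.08 and 0.037. The KMS34 differences in SYN3 and near ADAMTS16 both became 0.029. In that setting the median of all members was -0.0069 in KMS11 and 0.0288 in KMS34. A turned direction there is thus a small value of the other sign and is not read as an opposite effect. The cause was not tested. The member medians ran from -0.08 to 0.03 in KMS11 and from -0.02 to 0.06 in KMS34, and in 3 of 38 alternatives they changed sign. Depth is unknown and cannot be set apart from absence of a peak.

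Members called for NSD2LDD over both days were 29 in KMS11, 31 in KMS34 and 26 for the difference of lines with lists of equal length, 28, 17 and 13 with 30 bp added, 19, 15 and 6 without limma's trend and robust options, and 42, 18 and 54 for summit windows. With 300 bp added each line had 1 and within 1 line each had 0. Without scaling KMS34 had 8 and the difference 2, and with all 22 libraries these were 14 and 1. KMS34 minus KMS11 in DMSO gave 57 for summit windows. By day, equal lists gave 13 in KMS11 and 6 in KMS34 at day 4, 32 in KMS34 at day 10, 23 and 4 for the day change in DMSO in KMS11 and KMS34, 27 for the KMS34 day change over both treatments, 38 for its difference between lines, and 28 and 22 for the change of the NSD2LDD effect. Without scaling these were 4 in KMS11 and 0 in KMS34 at day 4, 2 for the KMS34 day change in DMSO, 2 over both treatments, 15 for its difference and 2 for the change of effect in KMS11. Within 1 line, day 10 gave 1 in each line and all other day comparisons 0. Scaling moved the median of all regions by 0.10 for KMS34 at day 4 (0.10 with it, 0 without) and from -0.17 to 0 for the change of effect in KMS34. With equal lists 10.3% of members lay at gene ends.

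Leaving out 1 library gave 5 to 18 members for NSD2LDD in KMS11, 3 to 21 in KMS34 and 0 to 0 for their difference. It gave 0 to 3 and 23 to 49 in KMS11 and 0 to 45 and 3 to 59 in KMS34 at day 4 and day 10. KMS34 minus KMS11 gave 182 to 261. The day change in DMSO gave 0 to 43 in KMS11 and 0 to 36 in KMS34, over both treatments 36 to 124 and 0 to 17, and its difference 0 to 23. The change of effect gave 0 to 18 and 1 to 36. Membership ran from 1447 to 3299.

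Deviations of same-numbered libraries correlated at -0.127 to 0.209 over pairs of groups. The highest value was between DMSO and NSD2LDD of KMS11 at day 10. There the first libraries had median peak widths of 446 and 417 bp and the second 649 and 633 bp. The main fit left the replicate number out, so any such pairing is not taken into account there. With the replicate number as a block, 5 members were called in KMS11 and 1 in KMS34 for NSD2LDD, 0 at day 4 in either line, 7 and 3 at day 10, 1 for the KMS11 day change in DMSO, 45 over both treatments and 0 in KMS34, 0 for its difference between lines, and 0 and 1 for the change of effect in KMS11 and KMS34.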

Other observations

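Several promoters among the members belong to genes with known roles outside plasma cells. They were chosen after their values were seen. IFNG, the gene of the cytokine interferon gamma, had a member at its start (chr12:68159672-68160311) covered by 418 and 435 bp in day 0 KMS11, 0 and 0 in TKO, 382 to 619 bp in the 8 later KMS11 libraries and 231 to 575 bp in all 10 KMS34 libraries. The start of GATA6, a zinc finger factor of endoderm, held 1001 and 216 bp in day 0 KMS11 and 841 to 1191 bp in the later KMS11 libraries. F3, the gene of tissue factor, held 454 and 537 bp at day 0 and 510 to 1041 bp later. None of the 3 was called for NSD2LDD in either line (limma, adjusted p of 0.929 to 1.00).

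SOX5, a SOX-family transcription factor gene, and RSAD2, the antiviral protein viperin, were higher in KMS34 than in KMS11 in DMSO. The SOX5 start was covered by 742 to 1145 bp in 4 KMS11 DMSO libraries and 1453 to 1749 bp in 4 of KMS34, a difference of 0.68 ± 0.14 (limma, adjusted p = 0.00397). At RSAD2 the values were 158 to 535 bp and 508 to 870 bp, which overlap, and the difference was 0.72 ± 0.20 (adjusted p = 0.0170). In KMS11 the SOX5 values in NSD2LDD were 552, 912, 339 and 431 bp, and its NSD2LDD difference of -0.73 missed the threshold (limma, adjusted p = 0.145).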
